A study of Mus musculus with 12 samples.

Results

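Interferon-stimulated genes were followed in embryonic fibroblasts of the mouse (MEFs), with and without reprogramming factors and vitamin B12. The set was a list of 41 gene symbols covering sensors of viral RNA, the transcription factors that carry the interferon signal and the antiviral proteins they switch on. All 41 were found among the 55573 genes of the count table. The cells came from C57BL/6 embryos at E13.5 and carried a doxycycline-inducible cassette of Oct4, Sox2, Klf4 and Myc (OSKM), a set of factors that can turn fibroblasts into induced pluripotent stem cells. MEF cells received neither doxycycline nor B12, MEF+B12 cells received 2 µM B12, OSKM cells received doxycycline, and OSKM+B12 cells received both, all for 72 h in stem cell medium. The labels give doxycycline at 1 µg/ml, and the methods of the study give another unit. Each group held 3 libraries, 1 from each of 3 embryos called clones 1 to 3, so the 12 libraries formed 3 matched sets of 4. Since uninduced cells had no doxycycline, effects of the drug and of the factors cannot be told apart, and the counts do not separate the cassette from the endogenous genes.

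Interferons are secreted proteins that cells release when sensors such as RIG-I detect viral nucleic acid. They bind surface receptors, the kinases Jak1 and Tyk2 phosphorylate STAT proteins such as Stat2, and Stat2 joins Irf9 in a complex that binds promoters of interferon-stimulated genes. The products degrade viral RNA, block its translation, tag proteins with Isg15 or dampen the signal again. Fibroblasts can make and answer type I interferon, and many of these genes are also transcribed at a low level without infection.

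Between 56971244 and 79236795 read pairs were counted per library, and all 41 genes were among the 19174 that passed the filter on low counts. The biological coefficient of variation left by the fit was 8.04%. Pou5f1, the endogenous name of Oct4, was at most 0.468 CPM (counts per 1e+06 counted read pairs, with library sizes scaled by TMM factors) in the 6 uninduced libraries. After induction it reached 18.5 to 20.7 CPM in clones 1 and 2 but 2.86 and 2.34 CPM in clone 3. Between MEF and OSKM, mean Sox2 went from 0.52 to 10.39 CPM and mean Myc from 19.16 to 39.15 CPM. Myc of clone 3 was at 18.61 and 20.05 CPM. Klf4 did not rise, with means of 135.4 CPM in MEF and 120.9 CPM in OSKM, and of 119.9 and 114.2 CPM with B12. Clone 1 differed from clones 2 and 3 in the year of its library titles and in sex genes, with Ddx3y at 80.2 CPM or more and Xist at 0.0289 CPM or less. These cannot be told apart from the clone. The OSKM library of clone 1 stood apart from its clone, with 120 of 1519 pseudogenes more than 2-fold away from the other 3 libraries, against at most 9 in any other library. A list of 10 fibroblast markers such as collagen genes summed to 116300 to 141800 CPM in MEF, 112800 to 114300 in MEF+B12, 88190 to 116900 in OSKM and 93780 to 104600 in OSKM+B12, with none at 0. A list of 16 macrophage markers, none of them at 0 in any library, summed to 831.5 to 1474 CPM in MEF and 1376 to 2101 CPM in MEF+B12. In induced cells the sums were 837 to 1348 CPM without B12 and 1395 to 1701 CPM with it. In such bulk RNA, more cells of a type and more RNA per cell cannot be told apart.

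The promoters were searched for the sequence through which many interferon-stimulated genes are known to be switched on. The interferon-stimulated response element contains 2 copies of GAAA separated by 2 bases, read as TTTC on the other strand. Promoter windows of 300 bases, from 250 before to 50 after the start of the gene, came from RefSeq (GRCm38) and covered 32 of the 41 genes. The element was present on either strand in 16 of the 32 (50%, exact 95% binomial interval 31.9 to 68.1), against 1079 of 27025 genes (3.99%). With 1 or 2 bases allowed between the copies, it was present in 20 of the 32 (62.5%) against 7.27% of all genes. These are matches of letters and not measured binding. The stretches below come from 7 genes described in the results and were taken from those with a match. Among the other members described, the windows of Irf7, Irf9, Psmb8, Psmb9, Oasl1, Oasl2, Ifi44, Sp100, Cmpk2, Herc6 and Lgals3bp held none. That says only that these letters are not in them. The windows of Ddx58, Ifih1, Bst2, Ifitm3 and Rsad2 held a match that is not printed. Usp18, Mx1, Mx2, Oas2 and Dhx58 were not among the 32. The stretches are written in the direction of transcription with the copies and the bases between them in capitals, and overlapping matches run together.
Oas3: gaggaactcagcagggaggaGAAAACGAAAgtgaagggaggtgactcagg
Oas1a: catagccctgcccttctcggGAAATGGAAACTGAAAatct
Isg15: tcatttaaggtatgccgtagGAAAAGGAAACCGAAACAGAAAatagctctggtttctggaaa
Ifit1: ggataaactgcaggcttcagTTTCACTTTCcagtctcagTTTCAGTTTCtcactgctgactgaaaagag
Ifit3: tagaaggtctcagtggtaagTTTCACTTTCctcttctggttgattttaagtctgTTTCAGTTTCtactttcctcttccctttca
Gbp2: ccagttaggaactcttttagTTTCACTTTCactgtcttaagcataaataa
Stat2: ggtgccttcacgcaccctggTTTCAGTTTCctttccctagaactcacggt
The stretch of Oas3 lies at chr5:120777705-120777754 on the minus strand, and that of Oas1a at chr5:120907526-120907565 on the same strand. The Isg15 stretch lies at chr4:156200855-156200916 (minus) and held 3 overlapping matches. Those of Ifit1 and Ifit3, at chr19:34640765-34640833 and chr19:34583353-34583436 (both plus), each held 2 separate matches. The Gbp2 stretch at chr3:142620584-142620633 and the Stat2 stretch at chr10:128270256-128270305 (both plus) held 1 each. Several families sit side by side in the genome: Oas2, Oas3 and Oas1a lie between 120730333 and 120907521 on chromosome 5, and Ifit3 and Ifit1 lie between 34583531 and 34650009 on chromosome 19.

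The genes were transcribed in every library, including those of untreated MEFs. Per length, as RPKM (CPM per kilobase of exon), 35 of the 41 had a median over the 12 libraries above the median of all tested genes (3.25 RPKM). Ifitm3, a membrane protein that blocks virus entry, had the highest level with a median of 770.5 RPKM and a range of 705 to 879. Bst2 (tetherin, which holds budding virus at the cell surface) had a median of 230.1 RPKM, the secreted lectin ligand Lgals3bp 188.6 RPKM and the ubiquitin-like modifier Isg15 172.5 RPKM. The ranges of these 3 over the libraries overlapped, while that of Ifitm3 did not overlap with any. Ifit3 (94.5 RPKM) and Ifit1 (49.6 RPKM), which bind viral RNA, were next in order. The lowest levels were those of Herc6, a ligase of the Isg15 system, at 1.365 RPKM, Mx1 at 1.07 RPKM and Oas3 at 0.905 RPKM. Their ranges overlapped, and Mx1 belongs to a family of antiviral GTPases. Levels of Ifit3 and Oas1a are uncertain, because 61.8% of the 31-base words of Ifit3 are shared with other genes, mainly Ifit3b, and 68.8% of those of Oas1a, mainly with Oas1g.

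**Figure D1:**
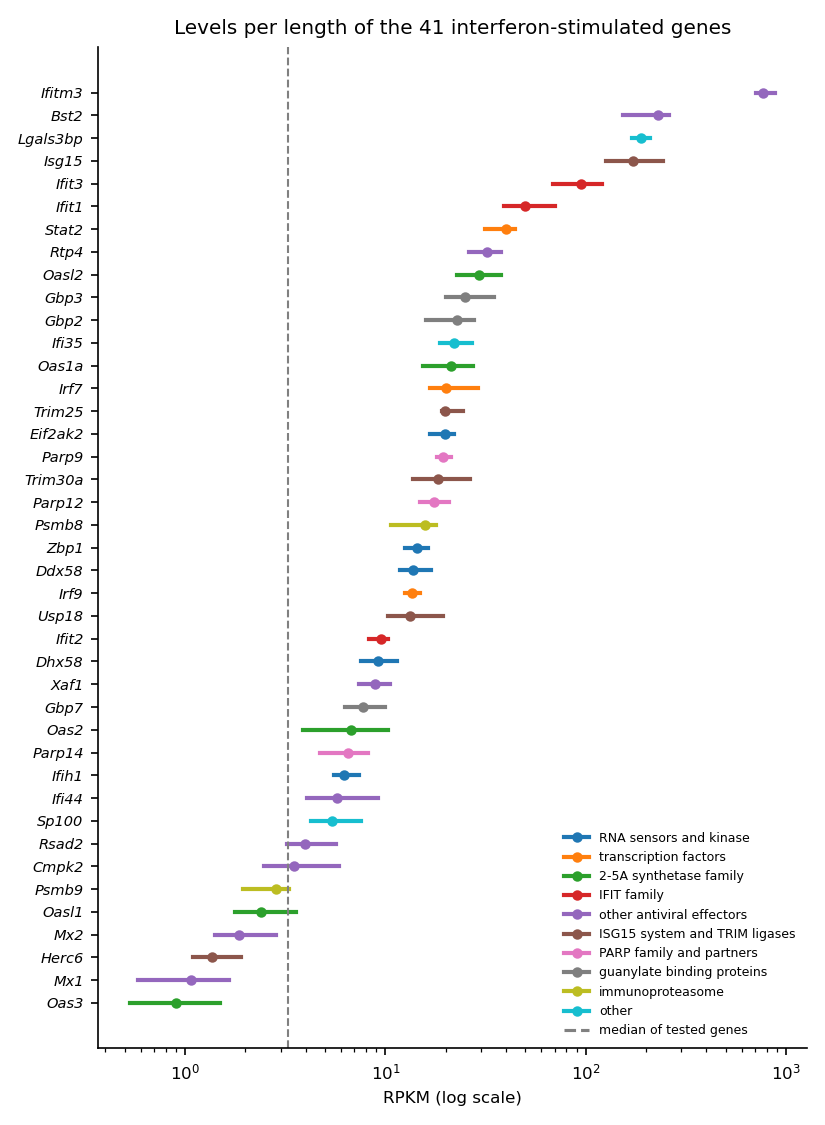
Levels per length of the 41 genes as RPKM on a log axis. Points are medians and bars run from the lowest to the highest of the 12 libraries, coloured by role, and the dashed line is the median of all tested genes (3.25 RPKM). Ifitm3 stands highest at 770.5 RPKM, and 6 genes from Psmb9 to Oas3 have medians below the line.

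Of the 10 interferon genes listed, none passed the filter. Interferon genes outside the list were not looked up. Of these 10, 8 had 0 counts in all 12 libraries. Where sequence is not shared with other genes, that allows at most 3 counts or 0.0384 to 0.0519 CPM per library. Shared with other genes were 88.3% of the 31-base words of Ifna1, 74.3% of Ifna5, 51.8% of Ifnl3 and 44.8% of Ifnl2. For Ifng and Ifna2 the shares were 22.6% and 20.6%. Ifnb1 (interferon beta) had 10 counts in total over 6 libraries with at most 3 in one, and Ifna4 had 1 count. The receptors were measured at higher levels. Ifnar1 and Ifnar2, the subunits of the type I receptor, were at 85.0 to 108 and 46.5 to 54.9 CPM over the 12 libraries. Ifngr1 and Ifngr2, the type II receptor, were at 49.6 to 58.5 and 67.1 to 87.4 CPM, and Il10rb, which pairs with the type III receptor, at 33.5 to 44.0 CPM. Ifnlr1, the specific subunit of the type III receptor, had 0.505 CPM or less.

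The first question was whether B12 changed these genes. Across both states, 2 of the 41 (4.88%) were called higher with B12, Oas3 and Oas1a (edgeR, Benjamini-Hochberg adjusted p under 0.05). That share was near the 3.84% of all tested genes called in either direction. Both encode 2-5A synthetases, which sense double-stranded RNA and make the messenger that activates RNase L. No member was called lower. A total of 38 of the 41 had a positive average difference and the median log2 difference was 0.13, against -0.01 over all tested genes, of which 44.9% were positive. At an unadjusted p under 0.05 there were 18 members (43.9%), against 15.5% of all tested genes.

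Oas3 (ENSMUSG00000032661, chr5:120753098-120777661, minus strand) stood at 6.44, 4.27 and 5.27 CPM in MEF for clones 1, 2 and 3 and at 10.6, 8.35 and 9.31 CPM in MEF+B12. It stood at 3.77, 4.70 and 5.27 CPM in OSKM, and the OSKM+B12 libraries had 6.49, 6.35 and 7.71 CPM. Every B12 library was above its partner and the groups did not overlap within either state, although the lowest OSKM+B12 library lay just below the highest MEF library. The fitted average was 0.70 ± 0.10 on the log2 scale (SE, 3 clones; edgeR adjusted p = 0.0031). In MEF cells it was 0.83 ± 0.15 (edgeR adjusted p = 0.0206), and in OSKM cells 0.58 ± 0.15 (edgeR adjusted p = 0.134). In MEF cells the call was lost without clone 2 (edgeR adjusted p = 0.491), without clone 3 (0.178) and without the replicate block (0.421). In the same order, 0%, 0.151% and 0% of all genes were called in those fits. The difference between the states, -0.25 ± 0.21, had an edgeR adjusted p of 1, so the state in which Oas3 passed the threshold is not shown to differ from the other.

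Oas1a (ENSMUSG00000052776, chr5:120896256-120907521, minus strand) stood at 40.9, 31.2 and 41.2 CPM in MEF and at 51.6, 43.5 and 46.2 CPM in MEF+B12. It stood at 28.9, 32.1 and 39.2 CPM in OSKM and at 38.6, 38.8 and 44.0 CPM in OSKM+B12. Within each clone the B12 library was the higher one, without overlap of the groups in MEF cells and with overlap in OSKM cells. The fitted average was 0.30 ± 0.07 on the log2 scale (edgeR adjusted p = 0.040). Of the 31-base words of Oas1a, 68.7% are shared with Oas1g, and reads of the pair cannot be told apart there. The part of Oas1g in the difference was not tested. Without clone 2 neither call was kept, with an edgeR adjusted p of 0.105 for Oas3 and 0.421 for Oas1a. Without clone 3, Oas3 kept its call (adjusted p = 0.0474, edgeR) and Oas1a did not (0.0826). In the fit without the replicate block the edgeR adjusted p was 0.0423 for Oas3 and 0.309 for Oas1a. Of all genes, 0.176% were called without clone 2, 1.65% without clone 3 and 0.469% without the block.

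**Figure D2:**
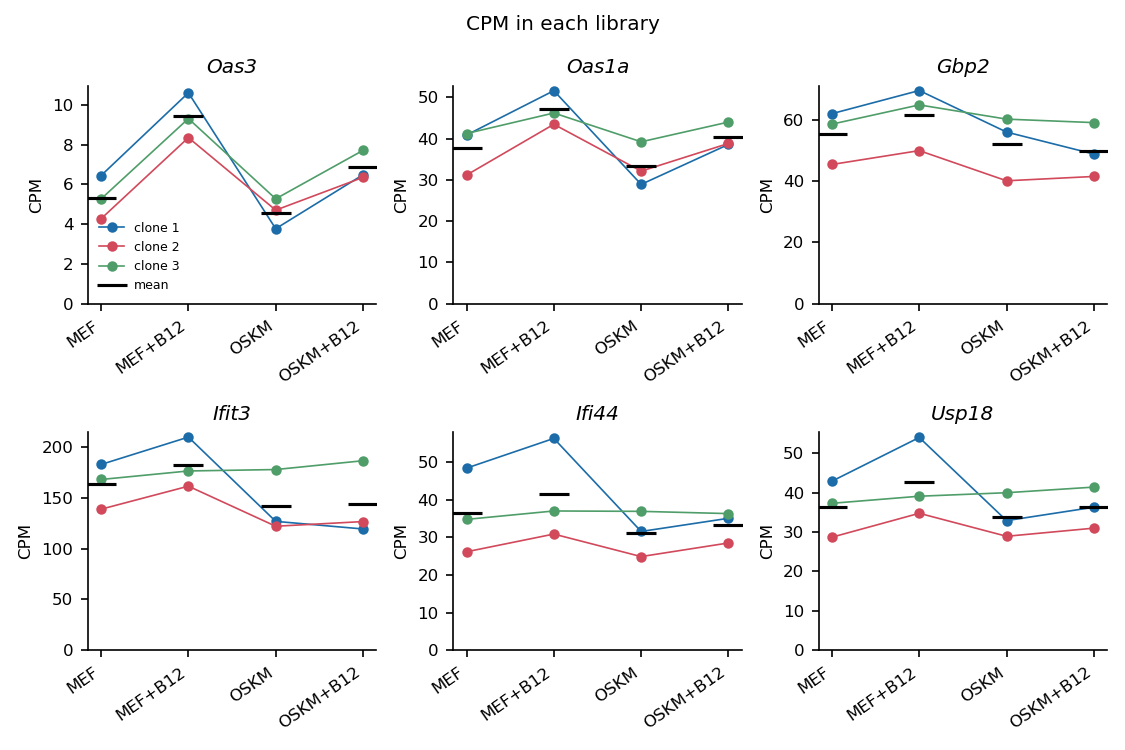
CPM of 6 genes in each library, on axes that start at 0, with points joined within a clone and black dashes for group means (n = 3). Oas3 was 4.27 to 6.44 CPM in MEF and 8.35 to 10.6 CPM in MEF+B12, and Ifit3 of clone 1 was 183 and 210 CPM in the uninduced libraries but 127 and 119 CPM in the induced ones.

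The other 2-5A synthetase genes had positive average differences that did not pass the threshold. Oas2 had 0.34 ± 0.09 (edgeR adjusted p = 0.0808), Oasl1, a relative without the enzyme activity, 0.38 ± 0.12 (edgeR adjusted p = 0.145), and Oasl2 0.06 ± 0.05 (edgeR adjusted p = 0.576). The median over the 5 genes of the family was 0.34. By contrast, the 3 Ifit genes had a median of 0.04, the 3 guanylate binding proteins, GTPases that act on vacuoles of pathogens, 0.07, and the 3 transcription factors 0.04. Stat2 and Irf9, the partners in the interferon-responsive complex, had average differences of 0.02 ± 0.04 and 0.04 ± 0.04 on the log2 scale. Irf7, the factor that amplifies type I interferon, had 0.19 ± 0.08 (edgeR adjusted p = 0.3). Among the sensors, Ifih1 (MDA5) had 0.04 ± 0.04 and Ddx58 (RIG-I) -0.01 ± 0.04, and Dhx58 (LGP2), which assists both and is named here after its values were seen, had 0.25 ± 0.06 (edgeR adjusted p = 0.0601). The ISG15 system and Trim ligases had a median of 0.16, with Isg15 at 0.13 ± 0.10 and its protease Usp18 at 0.16 ± 0.08. The immunoproteasome subunits Psmb8 and Psmb9, which cut peptides for antigen presentation, had 0.16 ± 0.06 and 0.16 ± 0.07 (edgeR adjusted p = 0.252 and 0.285). Bst2, among the other antiviral effectors, had 0.10 ± 0.06. DESeq2 called 7 members in this average (17.1%, against 5.39% of all genes), adding Oas2, Oasl1, Dhx58, Rsad2 (viperin, which makes a chain-terminating nucleotide) and its neighbour Cmpk2, a nucleotide kinase. The last 2 are named after their values were seen, with 0.33 ± 0.11 and 0.31 ± 0.09 in edgeR.

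In MEF cells alone, 40 of the 41 had a positive difference, with a median of 0.16 against -0.01 for all genes. Only Oas3 passed the threshold, 1 of 41 (2.44%) against 1.38% of all genes. An unadjusted p under 0.05 was found for 15 of the 41 (36.6%), against 10.3% of all genes. When only the 6 uninduced libraries were fitted, the count was 14 (34.1%), against 4.58% of all genes in that fit. In 28 of the 41 the B12 library was the higher one in all 3 clones, against 19.3% of all genes. Isg15 was an example, at 153, 107 and 141 CPM in MEF and 183, 125 and 145 CPM in MEF+B12. Those groups overlapped, since the spread between clones was wider than the difference within each clone.

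In OSKM cells, 0 of 41 were called by edgeR, against 1.06% of all genes, and 4 of the 41 (9.76%) had an unadjusted p under 0.05 against 9.82% of all genes. DESeq2 called 1, Oas3 (2.44%, against 2.45% of all genes). A positive difference was found for 32, the median was 0.08, and 18 were higher in all 3 clones against 15.5% of all genes. Without the OSKM library of clone 1 the median was 0.02 and 21 of 41 were positive, so that 11 members changed sign. The interaction, that is the B12 difference in OSKM cells minus that in MEF cells, gave 0 of 41 (percent called over all genes 0), with a median of -0.08 and 0 members at an unadjusted p under 0.05. The B12 difference was not shown to differ between clones either, with 0 members called, 0% of all genes called and 0 members at an unadjusted p under 0.05.

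**Figure D3:**
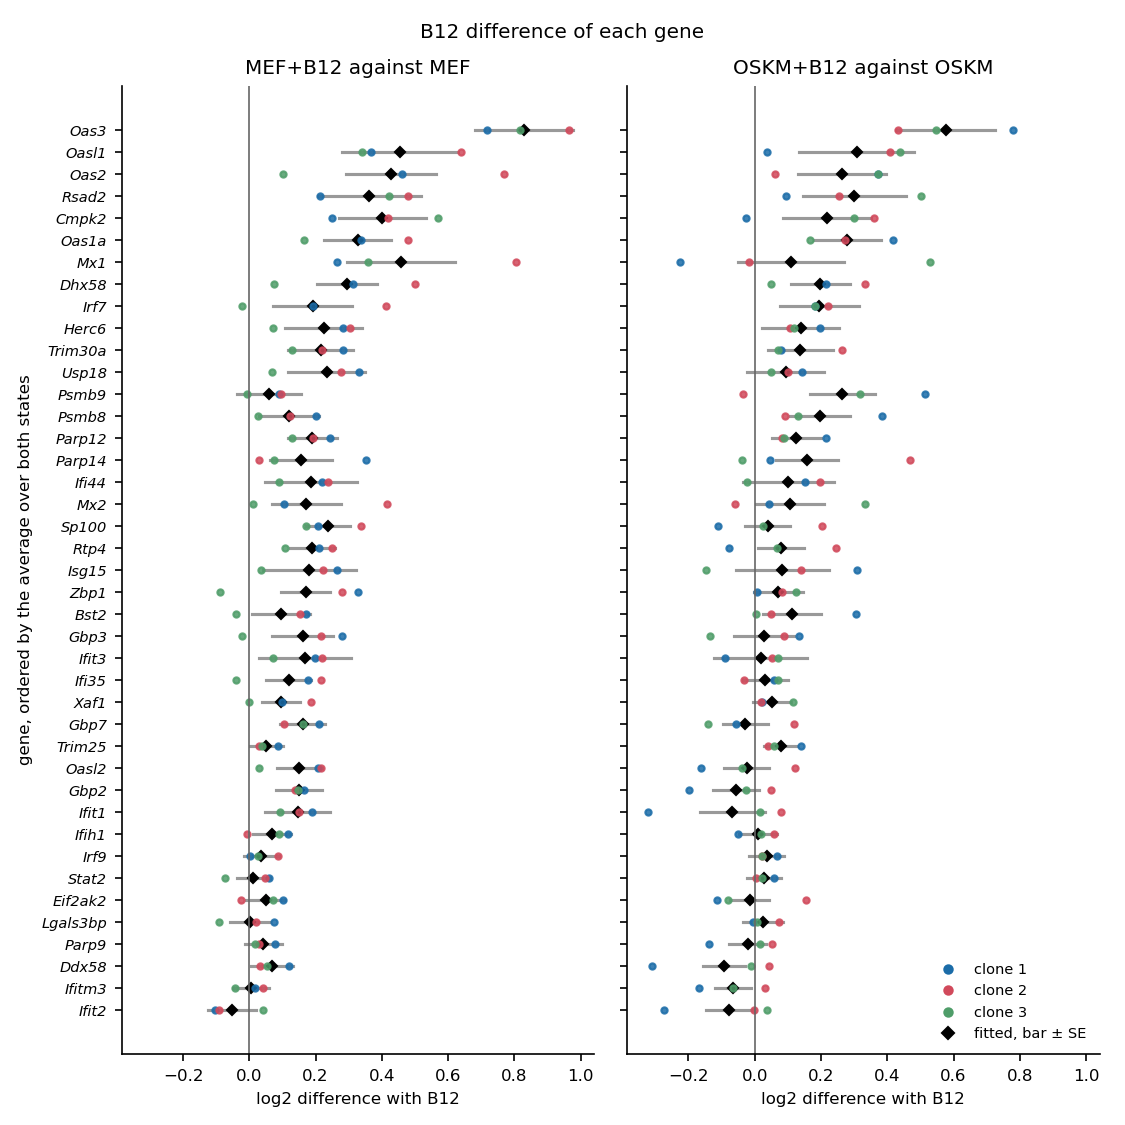
B12 differences of the 41 genes on the log2 scale in uninduced (left) and induced (right) cells. Coloured points are the 3 clones, diamonds are fitted values and grey bars ± 1 SE. Oas3 is highest in both panels, at 0.83 and 0.58, and fitted values are above 0 for 40 genes on the left and 32 on the right.

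Macrophage markers moved with B12 in the same libraries. Of the 16 markers, 14 were called higher in the B12 average (edgeR adjusted p under 0.05) and 0 lower. Over all tested genes 3.84% were called in either direction. The median log2 difference of the markers was 0.56. The median was 0.30 in clone 1, 0.69 in clone 2 and 0.65 in clone 3, while for the 41 interferon-stimulated genes it was 0.11, 0.15 and 0.06. Of the 10 fibroblast markers, 0 had a positive B12 average, 7 were lower in all 3 clones and 0 were called (edgeR; 4 at an unadjusted p under 0.05), with a median of -0.11. The part of macrophage or fibroblast RNA in the values of Oas3 and the other genes was not tested. Markers of lymphocytes and plasmacytoid dendritic cells summed to 0.502 CPM or less in every library, with 4 to 7 of the 8 at 0.

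Genes of the pathway outside the list were tested in the same fit, where 3.84% of all tested genes were called in the B12 average. Of 6 receptor genes 0 were called in the B12 average and the median was 0.01. Irf1, a factor of the interferon gamma response, had 0.00 ± 0.04 (edgeR adjusted p = 0.988). Called higher were Ptpn6 of 8 genes of JAK-STAT signalling and feedback, and Irf5 and Irf8 of 13 adaptors, kinases and interferon regulatory factors. These 3 are known for their expression in leukocytes. Irf5 rose by 0.80 ± 0.09 (edgeR adjusted p = 0.00074), from 7.03 to 12.5 CPM in MEF to 14.4 to 19.3 CPM in MEF+B12. Ptpn6, the phosphatase SHP-1, rose by 0.62 ± 0.09 (edgeR adjusted p = 0.0019), and Irf8 by 0.44 ± 0.08 (edgeR adjusted p = 0.0076). Of 35 further interferon-stimulated genes outside the 41, 1 was called, Nmi, a partner of STAT proteins, with 0.15 ± 0.03 (edgeR adjusted p = 0.0389). Of those 35, 29 were positive with a median of 0.07.

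The second question was whether induction of the factors for 72 h changed the genes. Without B12, 0 of 41 were called by edgeR, against 0.073% of all genes, and 7 had an unadjusted p under 0.05. DESeq2 called 0 as well, against 2.75% of all genes in its fit. The median was -0.05 and 16 of the 41 were positive. With B12, 0 of 41 were called by edgeR, against 0.104% of all genes. DESeq2 called 1, Gbp2 (2.44%, against 2.35% of all genes). In edgeR 10 had an unadjusted p under 0.05, with a median of -0.14 and 5 positive. At an unadjusted p under 0.05 the shares were 17.1% and 24.4% of the members, against 19.0% and 14.9% of all genes. Each induction comparison shares libraries with the B12 comparisons.

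Psmb8 and Gbp2, 2 of the examples, had lower values in induced cells. Psmb8 was at 52.9, 51.5 and 58.6 CPM in MEF and at 36.2, 42.3 and 54.1 CPM in OSKM, so that the induced library was the lower one in each clone but the groups overlapped. Its log2 difference was -0.31 ± 0.09 (edgeR adjusted p = 0.163), and without clone 3 it was -0.41 (edgeR adjusted p = 0.0325). In the fit without clone 3 it was the 1 member called (2.44%), below the 6.87% of all genes. Without clone 1 and without clone 2, 0 members were called, against 0.00524% and 0.00518% of all genes. Psmb9, the partner of Psmb8 and named after its values were seen, had -0.35 ± 0.10 (edgeR adjusted p = 0.163). Gbp2 was at 69.8, 50.1 and 65.1 CPM in MEF+B12 and at 48.95, 41.6 and 59.3 CPM in OSKM+B12, with overlap of the groups and a log2 difference of -0.30 ± 0.07 (edgeR adjusted p = 0.176). The differences of the 41 ran from -0.35 (Psmb9) to 0.36 (Mx1) without B12 and from -0.46 (Oas3) to 0.10 (Oas2) with B12, with a median SE of 0.09 in each comparison. Lower in all 3 clones were 6 members without B12 and 14 with B12, against 18.2% and 19.9% of all genes.

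Among the comparisons made, that between clones gave the most calls. A test of the 3 clones across the 4 groups called 24 of the 41 (58.5%), against 37.8% of all tested genes. Clone 2 had the lowest mean for 33 members and clone 1 the highest for 24, where over all tested genes clone 2 was lowest for 27.8% and clone 1 highest for 41.2%. The mean log2 CPM of the 41 was 5.81, 5.42 and 5.64 in MEF for clones 1, 2 and 3. In the same order it was 6.02, 5.67 and 5.74 in MEF+B12. The OSKM libraries had means of 5.60, 5.45 and 5.66, and those with B12 as well 5.67, 5.58 and 5.76. Clone 1 was thus highest in both uninduced groups and clone 3 in both induced groups, and clone 2 was lowest in all 4 groups. The same mean over all tested genes stayed between 2.93 and 2.99 in every library.

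**Figure D4:**
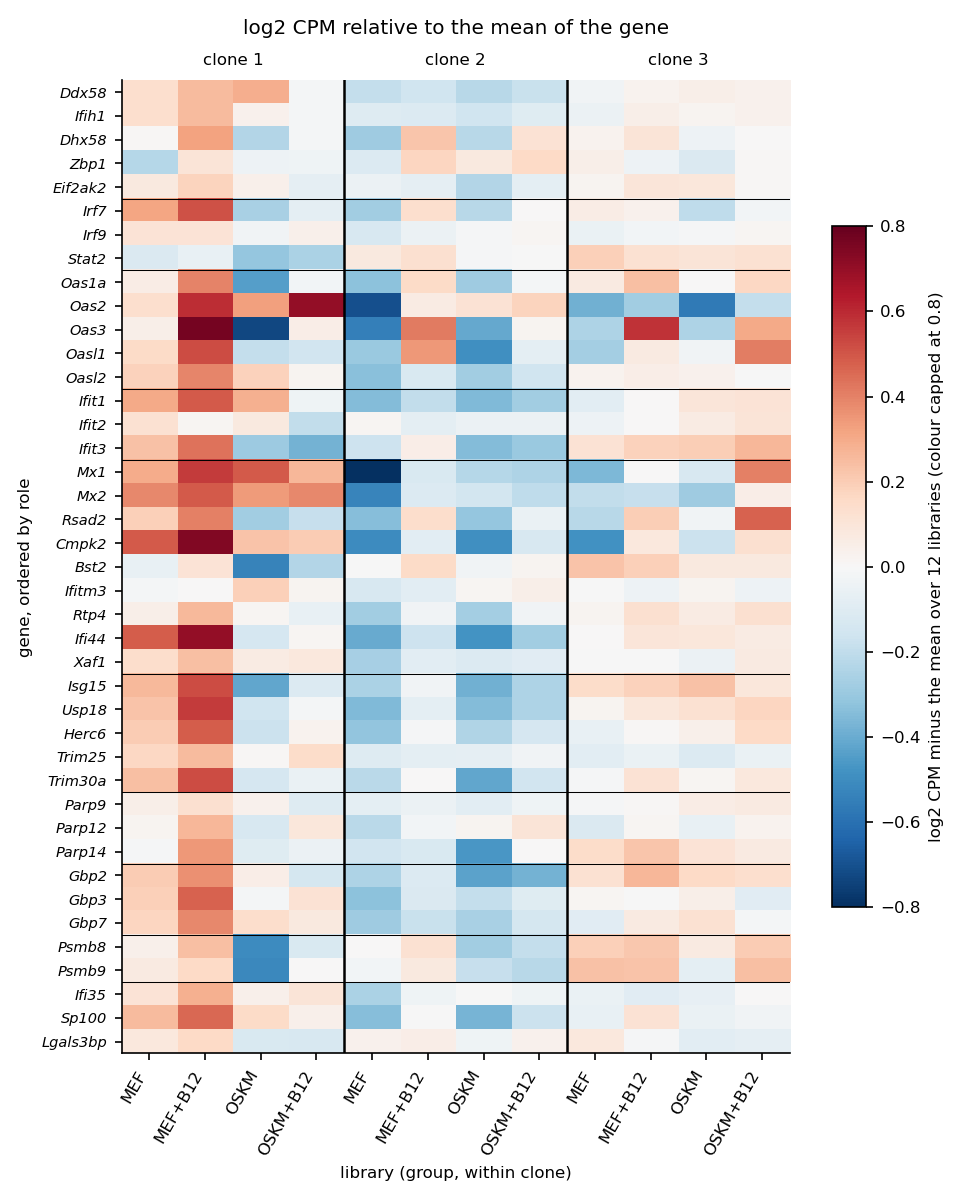
Level of each of the 41 genes in the 12 libraries, as log2 CPM minus the mean of the gene over the libraries, ordered by role (rows) and by clone (columns). Red is above and blue below the mean, with the colour capped at 0.8. The MEF+B12 library of clone 1 is red for most genes and most cells of clone 2 are blue, and the mean of the 41 was 6.02 in that library against 5.42 in the MEF library of clone 2.

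The smallest adjusted p was that of Gbp2 (ENSMUSG00000028270, chr3:142620602-142638008, plus strand), edgeR adjusted p = 0.00036. In the order MEF, MEF+B12, OSKM and OSKM+B12 it was at 62.2, 69.8, 56.2 and 48.95 CPM in clone 1, at 45.5, 50.1, 40.2 and 41.6 CPM in clone 2 and at 58.8, 65.1, 60.4 and 59.3 CPM in clone 3. Clone 2 was lowest in each group, while clone 1 was above clone 3 in uninduced cells and below it in induced cells.

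Mx2, of the same family as Mx1 and listed as a polymorphic pseudogene in the annotation, was highest in clone 1 (edgeR adjusted p = 0.00045). It was at 9.56, 10.3, 9.30 and 9.59 CPM in clone 1, at 5.09, 6.80, 6.64 and 6.37 CPM in clone 2 and at 6.40, 6.46, 6.03 and 7.60 CPM in clone 3. All 4 libraries of clone 1 were above all 8 of the others. Stat2 had the opposite order (edgeR adjusted p = 0.00066), with 212, 221, 186 and 193 CPM in clone 1, 243, 251, 229 and 229.5 CPM in clone 2 and 263, 250.2, 247 and 251 CPM in clone 3. Here every library of clone 1 was below every library of the other two.

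Sp100, a nuclear body protein, and Oasl2 completed the 5 smallest adjusted p (edgeR, 0.0006 and 0.00087). Clone 1 exceeded clone 2 by 0.45 and 0.42 on the log2 scale, and clone 3 exceeded clone 2 by 0.22 and 0.25. Of the other genes given as examples, Ifit1 (edgeR adjusted p = 0.0014), Ddx58 (0.0017), Usp18 (0.0145), Ifih1 (0.0149), Bst2 (0.0187) and Psmb8 (0.0282) were called, and Isg15 (0.0508), Ifit3 (0.0661), Irf9 (0.194) and Irf7 (0.226) were not. By role, the calls were 7 of 9 other antiviral effectors, 3 of 3 guanylate binding proteins, 3 of 5 RNA sensors and kinase and 3 of 5 of the ISG15 system and Trim ligases. They were 2 of 5 2-5A synthetases and 1 of 3 each of the transcription factors, Ifit genes and Parp genes. The immunoproteasome had 1 of 2 and the remaining members 2 of 3. Without clone 2, 8 of the 41 were called (19.5%), below the 27.3% of all genes in that fit. Without clone 1 it was 15 (36.6%, against 6.88%), without clone 3 it was 22 (53.7%, against 28.2%) and without the OSKM library of clone 1 it was 29 (70.7%, against 35.9%).

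Related genes also differed between clones. In the other lists, 19 of 35 further interferon-stimulated genes (54.3%), 8 of 13 adaptors, kinases and regulatory factors (61.5%) and 5 of 8 JAK-STAT genes (62.5%) were called. Of 6 receptors 1 was called (Ifngr1, 16.7%). The share called over all tested genes was 37.8%. The chemokine Cxcl10, which attracts T cells, was 1.11 higher in clone 1 than in clone 2 on the log2 scale (edgeR adjusted p = 0.0097), and Gbp5 was 0.76 higher (edgeR adjusted p = 0.0022). Slfn9, Uba7, the activating enzyme of Isg15, and Irf8 were higher in clone 1 than in clone 2 by 0.55, 0.43 and 0.39. Lower in clone 1 than in clone 2 were Slfn5 (-0.52), Irf1 (-0.31), Socs3 (-0.27), the STING gene Tmem173 (-0.25) and Ifi47 (-0.23), all called. Of the 16 macrophage markers, 11 (68.75%) were called between clones. Of these markers 15 were highest in clone 1 and 13 lowest in clone 3, where the interferon-stimulated genes were mostly lowest in clone 2. The part of these cells, of sex and of library year in the clone differences was not tested.

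The response to induction differed between clones for 3 of the 41, Ifit3, Ifi44 and Usp18, against 2.15% of all genes. An unadjusted p under 0.05 was found for 20 of the 41 and for 2842 of the 19174 genes tested. In clone 1, 35 of the 41 were lower in the OSKM library than in the MEF library, with a median of -0.15, and 39 were lower in OSKM+B12 than in MEF+B12, with a median of -0.34. Over all tested genes the shares lower in clone 1 were 52.4% and 51.2%. In clone 2 the numbers lower were 19 and 28 of 41 with medians of 0.01 and -0.08, and in clone 3 they were 15 and 19 with medians of 0.03 and 0.00.

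**Figure D5:**
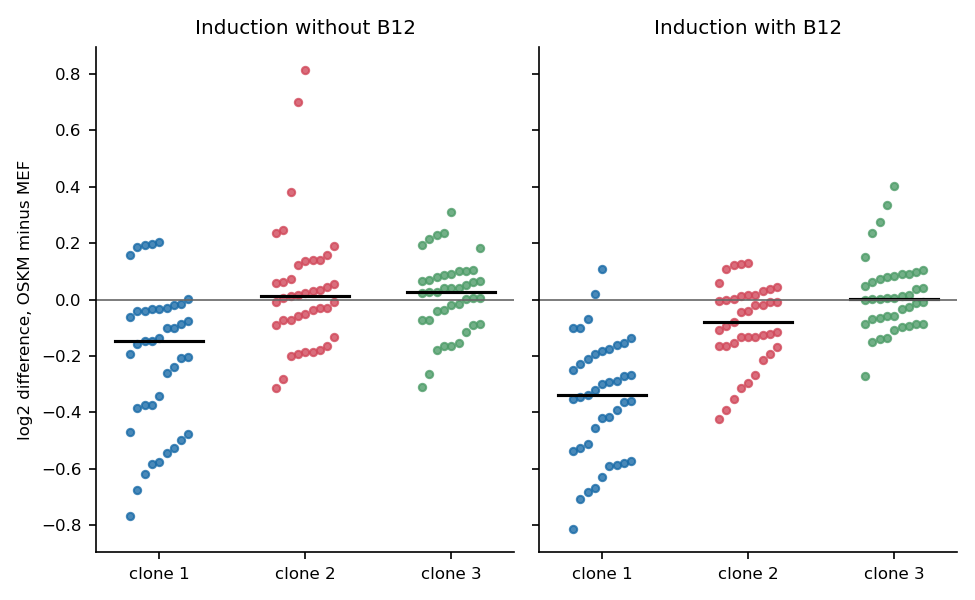
Induced minus uninduced log2 difference of the 41 genes in each clone, without B12 (left) and with B12 (right). Points are genes and black lines are medians. In clone 1 the medians are -0.15 and -0.34 and most genes lie below 0, while clones 2 and 3 lie around 0 with medians between -0.08 and 0.03.

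Ifit3 (ENSMUSG00000074896, chr19:34583531-34588731, plus strand) was at 183 and 210 CPM in the MEF and MEF+B12 libraries of clone 1 and at 127 and 119 CPM in its OSKM and OSKM+B12 libraries. In the same order it was at 138.9, 162, 122 and 127 CPM in clone 2 and at 168, 177, 178 and 187 CPM in clone 3. It was lower after induction in clones 1 and 2 and higher in clone 3 (edgeR adjusted p = 0.0057 for the difference between clones). Its near copy Ifit3b was called in the same test (edgeR adjusted p = 0.0151), and reads of the pair cannot be told apart where their sequence is shared.

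Ifi44 (ENSMUSG00000028037, chr3:151730922-151749960, minus strand) is a cytoplasmic protein that limits virus replication. It was at 48.5, 56.4, 31.6 and 35.1 CPM in clone 1, at 26.2, 30.9, 24.9 and 28.5 CPM in clone 2 and at 34.8, 37.1, 36.95 and 36.4 CPM in clone 3. In clone 1 both induced libraries were below both uninduced ones, in clones 2 and 3 they overlapped (edgeR adjusted p = 0.0125). Usp18 (ENSMUSG00000030107, chr6:121245906-121270917, plus strand), which removes Isg15 from proteins and dampens receptor signalling, was at 42.96, 54.1, 32.9 and 36.3 CPM in clone 1. It was at 28.7, 34.8, 28.9 and 31.01 CPM in clone 2 and at 37.3, 39.1, 40.0 and 41.5 CPM in clone 3 (edgeR adjusted p = 0.0315). Again the induced libraries of clone 1 lay below its uninduced ones, while those of clone 3 lay above.

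Isg15 followed the same order without passing the test (edgeR adjusted p = 0.0757), with induction differences of -0.67, -0.13 and 0.09 for clones 1, 2 and 3 without B12 and of -0.63, -0.21 and -0.09 with B12. Of the 35 further interferon-stimulated genes, 8 were called in this test (22.9%, against 2.15% of all genes). Pou5f1 was about as high in induced cells of clone 2 as in those of clone 1 and lower in clone 3, as given above, and its part in the clone difference was not tested. Macrophage markers had median induction differences of -0.20, -0.26 and -0.01 in clones 1, 2 and 3 without B12 and of -0.43, -0.24 and -0.03 with B12. In the test of induction by clone, 2 of the 16 were called (12.5%, against 2.15% of all genes). The median induction difference of the fibroblast markers was -0.04, -0.41 and 0.00 without B12 and -0.13, -0.10 and -0.06 with B12. The part of these cells in the clone difference was not tested. Without the OSKM library of clone 1, 9 of the 41 were called in the test of induction by clone (22%, against 4.3% of all genes). Without clone 1 there was 1 call (2.44%, against 3.79%), without clone 2 there were 2 (4.88%, against 1.01%), and without clone 3 there were 0 among the members and 0% of all genes.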

How the data were processed

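The authors prepared strand-specific poly(A) libraries, aligned read pairs to mm10 (GRCm38) with STAR (2.5.2 per the labels) and counted pairs per gene with featureCounts. What was deposited is a table of raw counts for each gene and library. Handling of reads with several matches is not given in the sources used here. Symbols, coordinates and exon lengths came from GENCODE mouse release 21 (55480 of 55573 identifiers matched). Here counts were tested with edgeR 4.0.16 in R 4.3.3 (quasi-likelihood F test, TMM, filterByExpr by group, Benjamini-Hochberg over 19174 genes, threshold 0.05) in 1 fit of the 12 libraries with clone and group as terms. Further fits added products of clone with state or with B12. CPM used TMM-scaled totals, log2 CPM a prior count of 2, and ± is the SE. The tests were checked on simulated counts. Intervals and limits cover counting error, not amplification.

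Clone was a block because same-numbered libraries came from the same embryo, and they deviated together (correlations of 0.270 to 0.687 over 18 pairs, against at most 0.170 between clones). P-values of the B12 and induction comparisons use 1 residual spread, pooled over the 12 libraries after the clone and group terms. That spread also holds differences between clones in the response to induction. In the B12 average, the differences of an embryo in both states count as separate values. These p-values therefore do not measure the spread over 3 embryos of the compared difference alone. The test between clones compares these 3 embryos and not a population of embryos.

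The 41 members and all lists were chosen with earlier results of these data known. Named in full were members called in a B12 or induction comparison, the 5 with the smallest adjusted p between clones, 12 examples of the roles, interferons and their receptors, Irf1 and up to 5 called pathway genes per direction (between clones, by clone 1 minus clone 2). The alternatives were DESeq2 1.42.0, other scalings and filters, only the libraries compared, no block, and leaving out a clone or the OSKM library of clone 1. Leaving out clones in the tests between clones was chosen after seeing the data. A result for 1 gene is not reported here.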

Additional observations from a re-analysis of the deposited data

Results flagged for a closer look

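The response to induction differed between the 3 clones for Ifit3 (edgeR adjusted p = 0.005686), Ifi44 (0.01253) and Usp18 (0.03155), by an F test of the product of clone and state. The differences of Ifit3 in clones 1, 2 and 3 were -0.53, -0.19 and 0.08 on the log2 scale without B12 and -0.82, -0.35 and 0.08 with B12. Those of Ifi44 were -0.62, -0.07 and 0.09 without B12 and -0.68, -0.11 and -0.03 with B12, and those of Usp18 were -0.38, 0.01 and 0.10 without B12 and -0.57, -0.17 and 0.08 with B12.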

How the results depend on the processing

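With DESeq2 in place of edgeR the members called were 7 in the B12 average, 2 in MEF cells, 1 in OSKM cells and 1 for induction with B12. The shares of all genes called were 5.39%, 2.9%, 2.45% and 2.35%. With no filter the members called were 7, 2, 1 and 1, with 1 for induction without B12 and 16 for induction by clone. In that order the shares of all genes were 2.51%, 1.28%, 1.1%, 1.95%, 2.06% and 3.8%. Without the replicate block that pairs libraries of a clone, 1 was called in the B12 average and 0 in MEF cells, against 0.469% and 0% of all genes. With only the libraries compared, 14 were called in MEF cells, against 4.58% of all genes. Leaving out a clone, or the OSKM library of clone 1, gave 0 to 4 calls in the B12 average, 0 to 2 in MEF cells, 0 to 1 for induction without B12, 0 to 2 for induction with B12, 8 to 29 between clones and 0 to 9 for induction by clone. In the same order the shares of all genes called were 0.176% to 4.03%, 0% to 1.71%, 0.00518% to 6.87%, 0.00518% to 5.22%, 6.88% to 35.9% and 0% to 4.3%. The cause was not tested. No member called in either fit changed sign. Among members called in neither, signs changed for 4 to 11 of the 41 for B12 in OSKM cells when a clone or the OSKM library of clone 1 was left out, and for 5 to 10 for induction without B12. Counted over the 12 examples, Oas3 and Oas1a alone, 741 differences from the alternatives stayed the same, 42 moved by more than their SE, 9 passed the threshold only in the alternative and 7 only as reported. Depth and shared sequence limit statements on the listed interferons, which were at or near 0 counts.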
